A study of Mus musculus with 9 samples.

Results

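The cytosolic ribosomal protein genes were examined in bone marrow-derived dendritic cells (BMDCs) as the set of genes whose name is Rpl or Rps followed by a number, together with Rplp0, Rplp1, Rplp2 and Rpsa. Names with the suffix of a numbered pseudogene, paralogs with an l in the suffix and the Rps6k kinases were left out by this rule, which used names and no measured value. It found 82 rows among the 57238 rows of the table. Of these, 77 were on a curated list of the ribosomal proteins of the mouse, 31 of the small and 46 of the large subunit. The other 5 were Rps27rt, Rpl37rt, Rps3a2 and Rps3a3, which are retrocopies or processed pseudogenes, and Rps19bp1, which encodes a protein that binds a ribosomal protein and is not one itself. A filter on low counts kept 80 of the 82 rows. The 2 rows that did not pass were Rps3a2, with at most 12 reads in a library, and Rps3a3, with at most 3.

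BMDCs of wild-type C57BL/6 mice were grown from bone marrow with GM-CSF at 20 ng/ml, and the labels give 6 days of culture. They were left untreated (CTR) or were exposed for 24 h to exosomes of NIH-3T3 fibroblasts (NE) or of tumor cells (TDE), with 3 libraries per group. The tumor line is not named in the labels. No library is tied by its labels to a separate culture or animal, so the p-values measure the spread between these libraries, which may be technical. GM-CSF cultures hold other myeloid cells besides dendritic cells, and in bulk RNA fewer cells of a type and less RNA per cell cannot be told apart.

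Each ribosome joins a small subunit, which reads the messenger RNA, to a large subunit, which forms the peptide bond. Each ribosomal protein is present once per ribosome, apart from the paired P1 and P2 proteins of the stalk, so the genes are known for being expressed together and in similar amounts. Their messengers begin with a run of pyrimidines, the TOP motif (terminal oligopyrimidine), through which TOR signaling controls their translation, whereas the making of new ribosomes also needs nucleolar factors and the RNA polymerase I machinery. In dendritic cells activation is known to raise protein synthesis. The genes are short, and several have many processed pseudogenes.

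The libraries held 17469745 to 21092882 reads on genes. Over all tested genes, CTR_1 correlated with the other CTR libraries at a mean r of 0.870 on the log2 CPM scale (CPM are counts scaled to a common library size with TMM factors), while among the other 8 libraries no pair had an r under 0.942. CTR_1 also had 1.02% of its reads on the mitochondrial genome, against 2.52% to 2.91% in the others. The dendritic cell genes Itgax (CD11c), Cd74 and H2-Ab1 were expressed in every library.

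Ribosomal protein genes took 12.1% of all reads in CTR_1, 3.60% in CTR_2 and 2.89% in CTR_3. The share was 2.78, 2.89 and 3.93% in the NE libraries and 2.79, 2.92 and 2.74% in the TDE libraries. CTR_1 thus stood apart from its own group, CTR_2 and NE_3 came next, and the other 6 libraries lay within 2.74% to 2.92%. The group means were 6.21% ± 5.14 (SD, n = 3) for CTR, 3.20% ± 0.634 (SD, n = 3) for NE and 2.82% ± 0.0933 (SD, n = 3) for TDE. Without CTR_1 the mean of the remaining CTR libraries was 3.24% ± 0.504 (SD, n = 2). The ranges of the groups overlapped, and the 3 TDE libraries varied least. The ratio of small to large subunit reads was 0.767 in CTR_1 and 0.720 to 0.742 in the other 8 libraries.

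**Figure D1:**
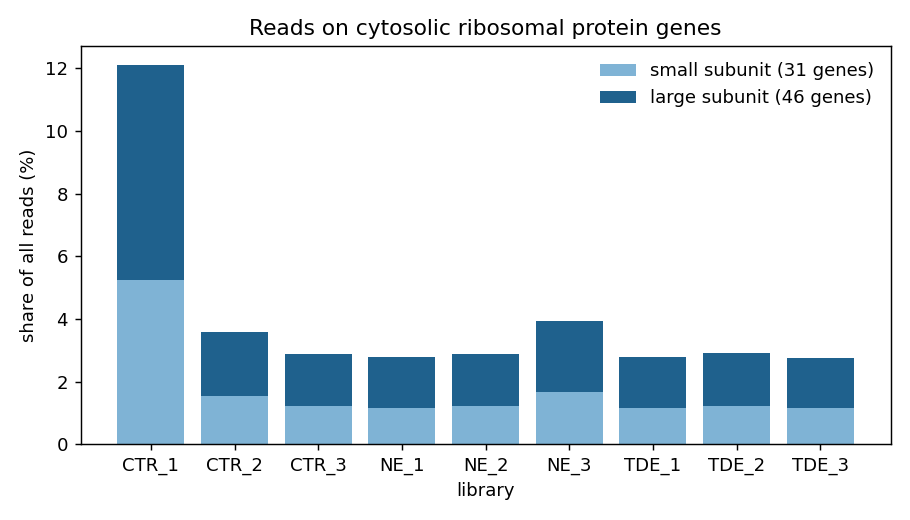
Share of all reads (%, from 0) on ribosomal protein genes in each of the 9 libraries, with the 31 small subunit genes in light blue and the 46 large subunit genes in dark blue stacked on each other. CTR_1 reaches about 12.1%, and the other 8 bars stand between 2.74% and 3.93%.

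The excess in CTR_1 ran through the whole set. All 80 tested genes were highest in CTR_1, where 36.5% of all tested genes were above every other library. The level in CTR_1 was 1.72-fold (Rpl7a) to 32.5-fold (Rpl37rt) of the median of the other 8 libraries, with a median over the genes of 5.81-fold. Among the other 8 libraries, NE_3 was the highest for 72 of the 80 genes, and the highest pair was CTR_2 and NE_3 for 74. Over these 8 libraries the median coefficient of variation was 15.6% for ribosomal protein genes and 13.2% for all tested genes at 50 CPM or more.

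These genes are short, and the deviation of a library moved with length. The curated genes were 345 to 5130 bases long in the table, with a median of 799, against 2648.5 for all tested genes, and 55 of the 77 were 1000 bases or less, against 11.0% of all tested genes. Deviations are given as log2 CPM minus the gene's mean over the 8 libraries other than CTR_1. In CTR_1 the median deviation of genes outside the set fell from 1.93 at 600 bases or less to 1.40, 0.66 and -0.13 in the classes up to 1000, 2000 and 4000 bases, and to -0.79 above that. The medians of ribosomal protein genes were higher than those of other genes of the same class, at 3.11 (20 genes), 2.43 (38 genes) and 2.23 (18 genes) in the first 3 classes. They did not fall further in the longer classes, at 2.55 (3 genes) up to 4000 bases and 2.56 (1 gene) above that. The last gene is Rps15a, listed at 5130 bases for a coding length of 390. The other 3 are Rps20 (3706 listed, 357 coding), Rpl22 (2051 and 384) and Rpl5 (2045 and 891). Their listed lengths are well above their coding lengths, so these classes cannot show how the deviation moves in longer messengers. After offsets fitted to gene length in each library the median of the ribosomal protein genes in CTR_1 was 1.01 and that of other genes was close to 0. The 79 tested genes of the mitochondrial ribosome, which make the proteins of a separate ribosome, had a median of 1.59 in CTR_1, and 0.75 after the offsets. In the first 3 length classes, before offsets, they were at 2.91 (3 genes), 2.01 (22 genes) and 1.37 (28 genes). In each of these classes they lay above other genes and below the cytosolic ribosomal protein genes. In NE_3 the medians over all lengths, before offsets, were 0.40 for the ribosomal protein genes and 0.32 for the mitochondrial ones. Other genes of 600 bases or less were also raised in NE_3 and CTR_2, with medians of 0.32 and 0.22. Ribosomal protein genes of that class had 0.46 and 0.28. The share of reads on the mitochondrial genome and the marker genes of other cells, given at the end, also set CTR_1 apart, and their part in these values was not tested.

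**Figure D2:**
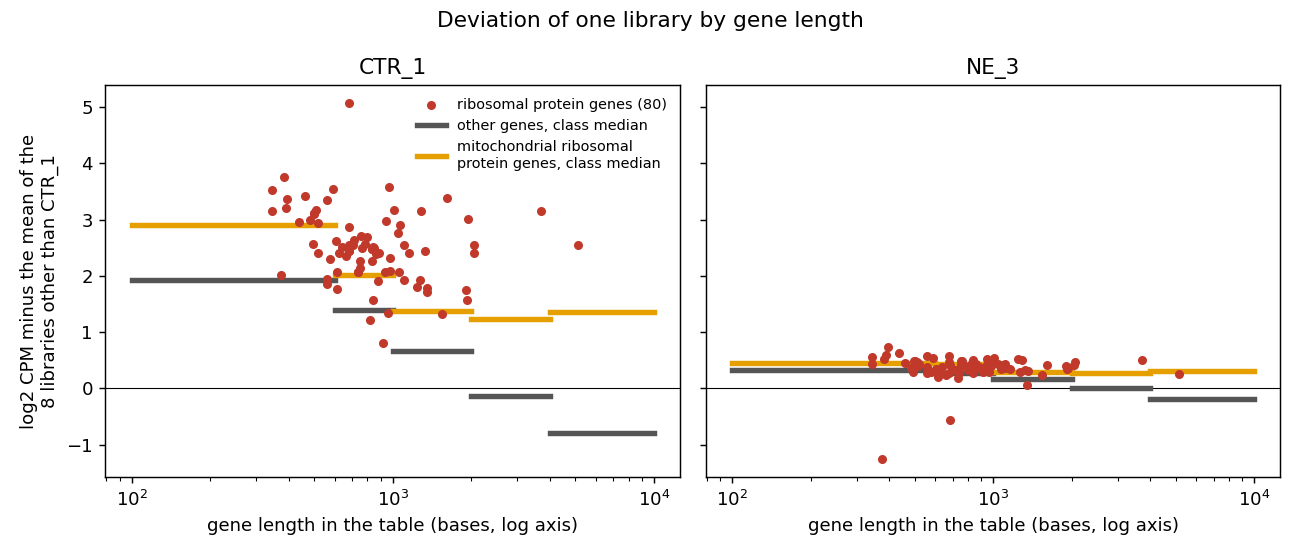
Deviation of CTR_1 (left) and NE_3 (right) in log2 CPM from the mean of the 8 libraries other than CTR_1, against gene length in bases on a log axis, with each of the 80 ribosomal protein genes as a red point. Horizontal bars mark the medians of other genes (grey) and of mitochondrial ribosomal protein genes (orange) in 5 length classes. In CTR_1 the median of the red points is 3.11 in the shortest class, where the grey bar is at 1.93.

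The starts of some of these genes are shown because the TOP motif is what ribosomal protein messengers are known to share, and because a retrocopy can be read against its parent gene. They are taken from RefSeq on GRCm38.p6, with 15 bases before and 15 bases from the annotated first base of the RNA, and capitals mark the unbroken run of C and T that includes that first base.
Rplp2 (chr7:141447636-141447665, plus strand): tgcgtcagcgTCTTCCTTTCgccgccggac
Rpl38 (chr11:114668565-114668594, plus strand): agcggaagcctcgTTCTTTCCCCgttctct
Rps21 (chr2:180257364-180257393, plus strand): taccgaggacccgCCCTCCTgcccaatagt
Rpl7a (chr2:26910792-26910821, plus strand): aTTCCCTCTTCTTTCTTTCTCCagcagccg
Rps2 (chr17:24720048-24720077, plus strand): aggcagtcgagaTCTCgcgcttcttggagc
Rps27 (chr3:90213634-90213663, minus strand): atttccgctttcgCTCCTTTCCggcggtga
Rps27rt (chr9:114982725-114982754, minus strand): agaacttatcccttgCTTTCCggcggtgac
Rplp0 (chr5:115559452-115559481, plus strand): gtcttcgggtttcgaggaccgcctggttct
Rpl24 (chr16:55966260-55966289, plus strand): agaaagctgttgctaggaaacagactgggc
Rplp2 and Rpl38, with large excesses in CTR_1, and Rpl7a, with the smallest, all start in a pyrimidine run, of 10, 10 and 21 bases. Rplp0 and Rpl24 have a purine at the annotated start, which may differ from the start used in these cells. The windows of Rps27 on chromosome 3 and of its retrocopy Rps27rt on chromosome 9 share a stretch of 14 bases that begins with CTTTCC. Of the 77 curated genes, 57 had a start in the table used. CTTTCC or CTTTTC stood in the 30-base window, on the strand of the gene, in 14 of these 57 (24.6%) and in 2.88% of all 27025 genes with a start, and on the other strand in 1 (1.75%) and in 2.56%. A run of at least 5 pyrimidines over the first base was found in 20 of the 57 (35.1%) and in 11.8% of all genes. These matches are a description of the annotated starts and no relation to the levels was tested. Rps21 has 2 starts in the table, of which 1 is shown.

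No ribosomal protein gene passed the test between TDE-treated and CTR BMDCs when all 9 libraries were used (edgeR's quasi-likelihood test, 0 of 80 at an adjusted p under 0.05), although 16.9% of all tested genes did (7.57% higher and 9.34% lower in TDE). The fold changes of all 80 genes were below 0 on the log2 scale, from -3.41 for Rpl37rt to -0.28 for Rpl7a, with a median of -1.45 against -0.06 over all tested genes. An unadjusted p under 0.05 was found for 46 of the 80 and for 5226 of all 15028 tested genes. DESeq2 called 20 of the 80, all lower in TDE, among 26.7% of all tested genes called and 15.1% lower. Limma voom with sample quality weights called 28, all lower in TDE, among 52.5% of all tested genes called and 26.7% lower. The 6 lowest were Rpl37rt, Rpl36, Rps21, Rpl38, Rps13 and Rplp2, and the 6 least low were Rps27rt, Rps7, Rpl4, Rpl3, Rps2 and Rpl7a.

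These values rested on CTR_1. Without it, 1 of the 80 genes passed, lower in TDE (34.8% of all tested genes did, 16.5% higher and 18.3% lower), the median was -0.17, and 71 genes were lower and 9 higher in TDE. Without CTR_3 instead, so that CTR_1 was set beside CTR_2 alone, 62 of the 80 passed, all lower in TDE (26.5% of all tested genes passed, 16.4% lower), with a median of -1.85. Rpl36, a protein of the large subunit, had 1958, 182 and 135 CPM in CTR_1, CTR_2 and CTR_3, 126, 141 and 208 CPM in the NE libraries and 128, 138 and 121 CPM in the TDE libraries. CTR_1 was far above the rest, and the TDE values overlapped with those of CTR_3 and of the NE libraries. Its log2 fold change in TDE vs CTR was -2.56 ± 0.93 (SE, adjusted p = 0.0947) with all libraries and -0.31 ± 0.20 (SE, adjusted p = 0.279) without CTR_1. Rps21, a small subunit protein, had 1387, 179 and 135 CPM in CTR_1, CTR_2 and CTR_3, 121, 116 and 223 CPM in the NE libraries and 125, 113 and 102 CPM in the TDE libraries, again with CTR_1 far above the rest, and with TDE below CTR_3 and overlapping with NE. Its fold change was -2.33 ± 0.83 (SE, adjusted p = 0.0898) and -0.49 ± 0.26 (SE, adjusted p = 0.189). For Rpl38 the values moved from -2.31 ± 0.88 to -0.26 ± 0.23, and for Rps13 from -2.30 ± 0.90 to -0.15 ± 0.23 (log2 ± SE). At the other end, Rpl7a moved from -0.28 ± 0.26 to 0.04 ± 0.15, Rpl4 from -0.68 ± 0.34 to -0.12 ± 0.11 and Rps7 from -0.74 ± 0.31 to -0.27 ± 0.13, and none of these 3 passed either way. With offsets fitted to gene length, 2 of the 80 passed, both lower in TDE, Rpl12 among them (24.9% of all tested genes passed, 13.5% lower). With these offsets and without CTR_1, a setting added after the values were seen, 11 passed in TDE vs CTR (3 higher, 8 lower, among 43.5% of all tested genes) and 14 in TDE vs NE (4 higher, 10 lower, among 49.7%).

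**Figure D3:**
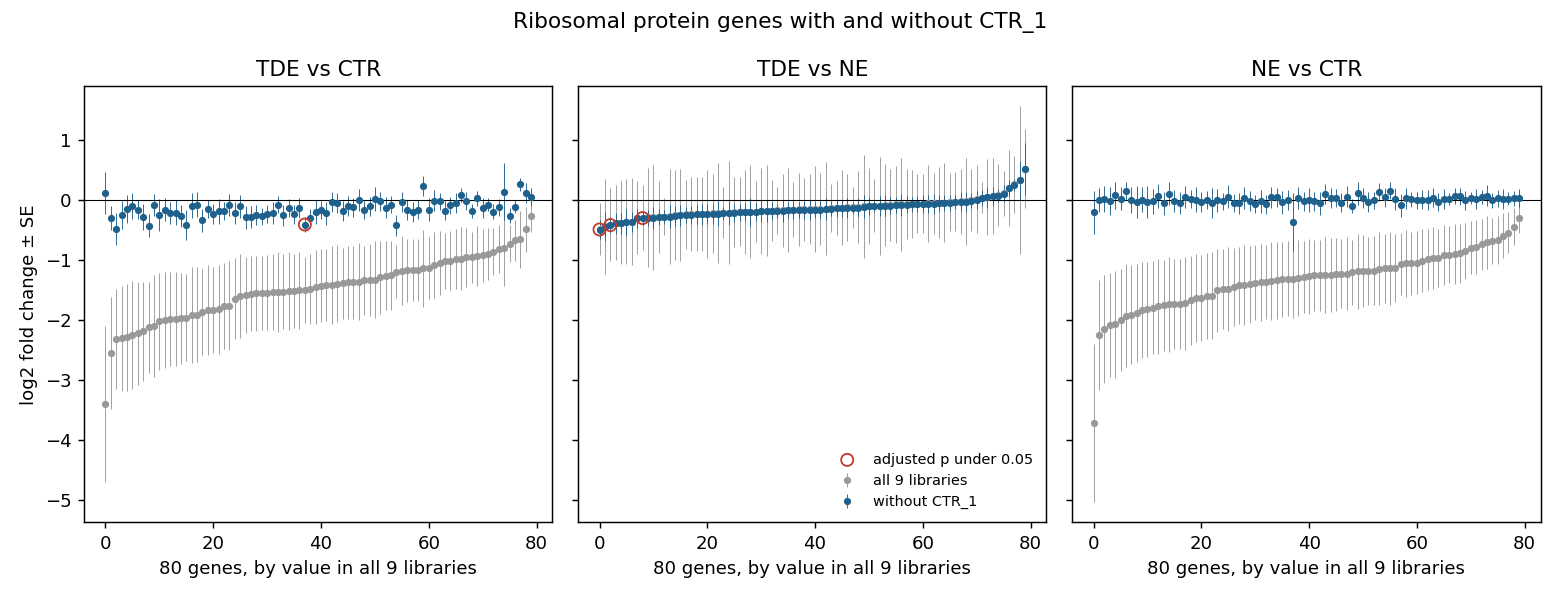
Log2 fold change ± SE of the 80 tested ribosomal protein genes in the 3 pairs of groups, ordered by the value in all 9 libraries (grey), with the value without CTR_1 in blue and red rings around those at an adjusted p under 0.05 without CTR_1. In the pairs with CTR the grey points all lie below 0 and the blue points lie close to 0, while in TDE vs NE both sets nearly coincide.

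Between TDE-treated and NE-treated BMDCs, which does not involve CTR libraries except through the shared spread, 0 of 80 ribosomal protein genes passed with all 9 libraries in edgeR, and 14.0% of all tested genes did (7.22% lower). None of the 80 had an unadjusted p under 0.05, where 3967 of all 15028 tested genes had. DESeq2 called 0 (20.1% of all tested genes), and voom with sample weights called 6, 3 in each direction (55.3%). The median log2 fold change was -0.16, and 70 genes were lower and 10 higher in TDE. NE_3 carried this lean, since without it the median was 0.07 and 55 genes were higher and 25 lower. With CTR_1 left out, the SEs shrank and 3 genes passed, Rpl12 and Rpl10a among them, all lower in TDE, where 41.1% of all tested genes passed and 21.9% were lower. A fit to the 6 libraries of this pair alone called 4 (1 higher, 3 lower), where 40.6% of all tested genes passed.

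Rpl10a, a large subunit protein of the L1 stalk, had 1118, 235 and 182 CPM in CTR_1, CTR_2 and CTR_3, 204, 214 and 276 CPM in the NE libraries and 179, 174 and 167 CPM in the TDE libraries. The TDE libraries were below the NE libraries and below each CTR library. Its log2 fold change in TDE vs NE was -0.42 ± 0.13 (SE, adjusted p = 0.0276) without CTR_1 and -0.42 ± 0.60 (SE, adjusted p = 0.768) with it. In TDE vs CTR without CTR_1 it was -0.28 ± 0.14 (SE, adjusted p = 0.171). For Rpl12, whose near-identical copies held more reads than its own row, the TDE vs NE value without CTR_1 was -0.50 ± 0.16 (SE, adjusted p = 0.0306). Other genes at the low end in TDE vs NE were Rps21 at -0.45 ± 0.24, Rps19bp1 at -0.40 ± 0.17 and Rps28 at -0.37 ± 0.22 (log2 ± SE without CTR_1), none of which passed. Rps19bp1 passed with length offsets and without CTR_1, at -0.30 ± 0.10 (SE, adjusted p = 0.0319). Leaving out NE_3 moved these values most. Without it Rps21 was at -0.06, Rps28 at -0.03, Rps19bp1 at -0.18, Rpl10a at -0.26 and Rpl12 at -0.29 in TDE vs NE.

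At the high end in TDE vs NE stood Rps27rt, Rpl37rt, Rpl3, Rpl24, Rps2 and Rpl29. Rpl3, a large subunit protein close to the peptidyl transferase center, had 2064, 609.7 and 504 CPM in CTR_1, CTR_2 and CTR_3, 528, 532 and 623 CPM in the NE libraries and 657, 692 and 659 CPM in the TDE libraries. Leaving CTR_1 aside, the TDE libraries were above every CTR and NE library, and CTR_1 was above them all. The log2 fold change of Rpl3 was 0.25 ± 0.09 (SE, adjusted p = 0.064) in TDE vs NE and 0.26 ± 0.11 (SE, adjusted p = 0.0924) in TDE vs CTR without CTR_1, both short of the threshold, and with length offsets and without CTR_1 it passed in both pairs (0.30 ± 0.04 (SE, adjusted p = 3.38e-04) and 0.30 ± 0.05 (SE, adjusted p = 8.77e-04)). Rpl24, a late-joining large subunit protein, had 2038, 380.2 and 322 CPM in CTR_1, CTR_2 and CTR_3, 312, 315 and 454 CPM in the NE libraries and 420.4, 429 and 391 CPM in the TDE libraries. The TDE libraries were above CTR_2, CTR_3, NE_1 and NE_2 and below NE_3. Its values without CTR_1 were 0.19 ± 0.14 (SE, adjusted p = 0.32) and 0.23 ± 0.16 (SE, adjusted p = 0.31), and with length offsets in addition they passed, at 0.30 ± 0.05 (SE, adjusted p = 0.00111) and 0.31 ± 0.06 (SE, adjusted p = 0.00222). Rps2 was at 0.10 ± 0.14 and Rpl29 at 0.07 ± 0.11 in TDE vs NE, and neither passed. With length offsets and without CTR_1 both did, Rps2 at 0.19 ± 0.06 (SE, adjusted p = 0.0294) and Rpl29 at 0.16 ± 0.04 (SE, adjusted p = 0.0093). With 1 library left out at a time, Rps2 ran from 0.0073 without NE_1 to 0.307 without NE_3, and Rpl29 from 0.0116 to 0.205 and Rpl24 from 0.106 to 0.41 without the same libraries.

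Between NE-treated and CTR BMDCs no ribosomal protein gene passed with all 9 libraries in edgeR, DESeq2 or voom with sample weights. Of all tested genes, edgeR called 0.0%, DESeq2 0.0399% (6 genes) and voom 0.12% (18 genes). At an unadjusted p under 0.05 stood 39 of the 80 in DESeq2 (896 of all 15028 tested genes) and 45 in voom (3268 of all tested genes). In edgeR 14 of the 80 and 487 of all tested genes were at an unadjusted p under 0.05. The median log2 fold change of the 80 in edgeR was -1.28. Without CTR_1 it was 0.0001, with 40 genes higher and 40 lower, and 0.02% of all tested genes passed. None of the 80 was then at an unadjusted p under 0.05, where 385 of all tested genes were. TDE vs CTR and NE vs CTR share the CTR libraries, so CTR_1 enters both, and TDE vs NE shares its libraries with each of them.

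Median log2 fold changes in TDE vs CTR by family, with all libraries and without CTR_1, were -1.51 and -0.15 for the 15 small subunit proteins found in all domains of life and -1.46 and -0.17 for the other 16. For the large subunit they were -1.25 and -0.13 for the 18 universal proteins and -1.51 and -0.17 for the other 26. The P-stalk proteins, which recruit the elongation factors, had medians of -1.99 and -0.19 over 3 genes. Rplp0, which anchors the stalk, had 3530.1, 1200.2 and 1028 CPM in CTR_1, CTR_2 and CTR_3, 1066, 1037 and 1334 CPM in the NE libraries and 982, 1005 and 969 CPM in the TDE libraries, with a log2 fold change in TDE vs CTR without CTR_1 of -0.19 ± 0.12 (SE, adjusted p = 0.252). CTR_1 exceeded the median of the others 3.42-fold for Rplp0, 9.34-fold for Rplp1 and 12.6-fold for Rplp2, although the proteins share a complex. Rplp0 is listed at 1358 bases, Rplp1 at 499 and Rplp2 at 964. Without CTR_1, Rplp1 was at -0.23 ± 0.18 and Rplp2 at -0.10 ± 0.21. Rpl5 and Rpl11, which bind the 5S RNA and, when free, MDM2, were at -0.17 ± 0.15 and -0.04 ± 0.17 in TDE vs CTR without CTR_1 (log2 ± SE), and neither passed in any pair, with or without CTR_1. Rps27a, made as a fusion with ubiquitin, was at 0.01 ± 0.20. Fau, a fusion with a ubiquitin-like protein, has a name outside the rule and passed in none of these pairs.

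Levels per length (TPM, counts divided by the listed length and scaled to a common total, median of the 8 libraries other than CTR_1) were highest for Rps9 at 2568, Rplp1 at 1772, Rpl41 at 1699, Rplp0 at 1651 and Rpl23a at 1641. The 5 lowest rows were Rps27rt at 7.29, Rpl37rt at 15.1, Rps19bp1 at 23.7, Rpl12 at 27.2 and Rps12 at 72.5. The first 3 of these are not on the curated list, while Rpl12 and Rps12 encode proteins present in every ribosome. Rps15a, next above them at 117, is listed with 5130 bases for a coding length of 390, so its level per length depends on the listed length.

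For Rpl12 and Rps12, rows of near-identical copies held more reads than the gene's own row. Coding sequences were matched to all transcripts of the GENCODE M21 annotation at 95% identity over 80% of their length, and 69 of the 77 curated genes had at least 1 such copy, 564 copies in all, of which 539 are annotated as pseudogenes. In the median of the 8 libraries the copies held more than 10% of the reads of gene and copies together for 18 genes and more than 50% for 6, namely Rps12, Rpl12, Rpl5, Rpl10, Rps13 and Rpl27a. How the authors' counting split such reads is not given in the sources used here, so the values of these genes are uncertain. Rpl12 had 54.7, 19.2 and 15.3 CPM in CTR_1, CTR_2 and CTR_3, 15.9, 15.8 and 22.6 CPM in the NE libraries and 12.6, 12.4 and 13.6 CPM in the TDE libraries on its own row, and its 6 copies together had 1227, 292 and 241 CPM in CTR_1, CTR_2 and CTR_3, 250.0, 242 and 336 CPM in the NE libraries and 248, 258 and 262 CPM in the TDE libraries. On its own row the TDE libraries were below all others, and on the copies they overlapped with both groups. The log2 ratio of the mean TDE to the mean NE level was -0.49 for the row of Rpl12 and -0.13 for the row and its copies summed. Rps12 had 16.1 CPM on its own row and 336 CPM on its 23 copies (medians of the 8 libraries), and in CTR_1 176 and 2342 CPM. The copies of Rps13 did not follow its own row, which went from a median of 76.1 to 978 CPM while its 5 copies had 120.0 and 143 CPM. Those of Rpl10 followed its row little. The row had 268 to 379 CPM in the 8 libraries and 1972 CPM in CTR_1, and the copies had 510 to 621 and 712 CPM. Reads on copies thus need not be reads of the parent gene. With all copies added, the set's share of reads was 13.2% in CTR_1 and 3.04% to 4.34% in the other libraries.

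To compare the genes with each other and not with the rest of the library, each was expressed as a share of the summed ribosomal protein reads, a scale on which the genes cannot all move one way. On this scale the 3 TDE libraries lay above all 6 CTR and NE libraries for 13 of the 80 genes and below all 6 for 14. Of all tested genes divided by the same sum, 25.6% lay above and 2.27% below, and without CTR_1 the counts were 14 above and 18 below among the ribosomal protein genes, with 25.8% and 14.8% of all tested genes. These shares are not a like background, since dividing by this sum shifts the other genes. On this scale the median log2 fold change over all tested genes in TDE vs CTR was 0.52, and 0.09 without CTR_1. For the ribosomal protein genes the scale holds the median near 0, at -0.06 and -0.03. On the CPM scale, for comparison, the TDE libraries lay above the other 5 for 1 ribosomal protein gene and below them for 9, with 24.4% and 25.1% of all tested genes. Rpl3 took 1.27, 1.79 and 1.87% in CTR_1, CTR_2 and CTR_3, 2.01, 1.94 and 1.63% in the NE libraries and 2.35, 2.40 and 2.40% in the TDE libraries, so that every TDE library was above every other, and CTR_1 was the lowest. The log2 ratio of TDE to NE means was 0.36. Rpl24 took 1.26, 1.12 and 1.19% in CTR_1, CTR_2 and CTR_3, 1.18, 1.15 and 1.19% in the NE libraries and 1.50, 1.49 and 1.43% in the TDE libraries, also with no overlap, and a log2 ratio of 0.33. Rps2 took 0.888, 1.81 and 1.83% in CTR_1, CTR_2 and CTR_3, 1.83, 1.82 and 1.83% in the NE libraries and 2.12, 2.12 and 2.18% in the TDE libraries, at a log2 ratio of 0.23. In this gene the CTR_2, CTR_3 and NE values were nearly equal, and CTR_1 was far below them. The other genes above all 6 were Rpl29, Rpl7a, Rpl6, Rps27a, Rps15a, Rps9, Rpl9, Rpl27a, Rpl11 and Rps16, with log2 ratios of TDE to NE from 0.06 to 0.19.

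Among the 14 below all 6 were Rpl10a, Rps19bp1, Rps27, Rpl36, Rplp1, Rpl37a, Rpl30, Rpl28, Rpl18, Rps15, Rps14 and Rpl32, with log2 ratios of TDE to NE from -0.30 to -0.07. Several are among the shortest of the set, such as Rps27 at 345 and Rpl36 at 383 bases. The part of length in these shares was not tested. With length offsets and without CTR_1, Rpl10a, Rps19bp1, Rps27 and Rpl30 passed in TDE vs NE, and the others named here did not. Rpl10a took 0.690, 0.690 and 0.676% in CTR_1, CTR_2 and CTR_3, 0.773, 0.783 and 0.721% in the NE libraries and 0.640, 0.605 and 0.607% in the TDE libraries. Rps27, a small subunit protein with a zinc finger, took 1.07, 0.784 and 0.676% in CTR_1, CTR_2 and CTR_3, 0.648, 0.770 and 0.692% in the NE libraries and 0.607, 0.588 and 0.593% in the TDE libraries. In both genes the TDE libraries were close together and below the others. With the summed reads as library size and without CTR_1, edgeR called Rpl24 (log2 fold change 0.33 ± 0.10 SE, adjusted p = 0.0419) and Rpl3 (log2 fold change 0.36 ± 0.11 SE, adjusted p = 0.0458) higher in TDE vs NE, 2 of 80, where 22.0% of all tested genes passed and 12.5% were higher. In TDE vs CTR on this scale it called none of the 80 (16.3% of all tested genes passed), and Rpl3 was at 0.38 ± 0.12 (SE, adjusted p = 0.0688). At an unadjusted p under 0.05 were 4 of the 80 there and 4507 of all 15028 tested genes. With all 9 libraries no ribosomal protein gene passed on this scale in any pair, where 0.659%, 0.486% and 0.0% of all tested genes passed in TDE vs CTR, TDE vs NE and NE vs CTR. None of the 80 had an unadjusted p under 0.05, and of all tested genes 1496, 1251 and 51 had in these pairs. NE vs CTR without CTR_1 had no call on this scale either, among ribosomal protein genes or others (0.0%). No ribosomal protein gene had an unadjusted p under 0.05 there, where 139 of all tested genes had.

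**Figure D4:**
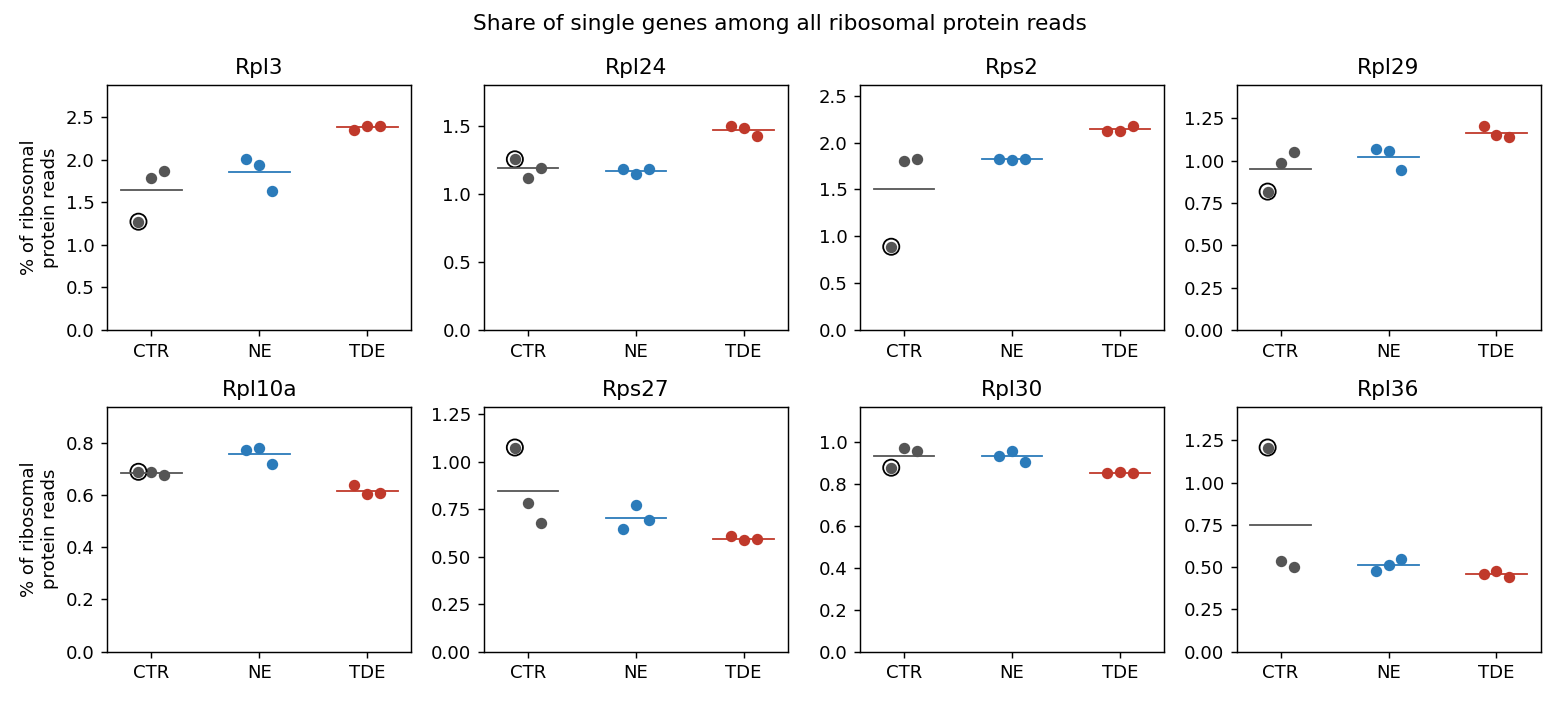
Share of 8 single genes among all ribosomal protein reads (%, axis from 0) by group, each point a library, the line the group mean and the ringed point CTR_1. The TDE libraries lie above all CTR and NE libraries for Rpl3, Rpl24, Rps2 and Rpl29 and below them for Rpl10a, Rps27, Rpl30 and Rpl36. All 8 were picked from the genes without such overlap, and for Rpl36 TDE_2 and NE_1 nearly coincide.

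The 2 retrocopies that passed the filter had few reads. Rps27rt, on chromosome 9 from 114982366 to 114982739 (GENCODE M21, a protein-coding entry), had 5.77, 1.35 and 1.66 CPM in CTR_1, CTR_2 and CTR_3, 1.91, 1.08 and 0.497 CPM in the NE libraries and 2.22, 1.36 and 1.41 CPM in the TDE libraries. NE_3, which was the highest of the 8 libraries for most genes of the set, was the lowest for Rps27rt. Its fold change in TDE vs NE without CTR_1 was 0.51 ± 0.44 (SE, adjusted p = 0.387). Rpl37rt, a transcribed processed pseudogene on chromosome 5, had 167, 4.97 and 5.30 CPM in CTR_1, CTR_2 and CTR_3, 5.57, 4.50 and 3.23 CPM in the NE libraries and 5.54, 3.11 and 7.99 CPM in the TDE libraries. CTR_1 was the only library above 8 CPM. Its fold change in TDE vs CTR was -3.41 ± 1.29 (SE, adjusted p = 0.106) with all libraries and 0.11 ± 0.35 (SE, adjusted p = 0.847) without CTR_1. Rps19bp1, a nucleolar partner of the deacetylase SIRT1, had 56.4, 11.9 and 8.88 CPM in CTR_1, CTR_2 and CTR_3, 10.03, 9.43 and 14.1 CPM in the NE libraries and 8.65, 8.95 and 8.05 CPM in the TDE libraries, the TDE libraries being below the NE libraries and overlapping with CTR_3. Its value in TDE vs NE without CTR_1 was -0.40 ± 0.17 (SE, adjusted p = 0.0981).

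By GENCODE M21 the curated genes lie on 19 chromosomes, and 30 of the 77 hold a total of 58 small nucleolar RNA genes. Exons of 17 overlap an exon of another gene on the opposite strand, among them Rpl10a, Rpl12, Rps2 and Rps27a, and exons of 4, Rpl24 among them, overlap one on the same strand. Whether strand was used in counting is not given in the sources used here, so reads of such overlaps cannot be assigned with certainty. On GRCm38, Rpl10a lies on chromosome 17 (28328471 to 28331033, plus strand), Rpl12 on chromosome 2 (32961559 to 32965345, plus strand), Rpl3 on chromosome 15 (80077791 to 80091868, minus strand) and Rpl24 on chromosome 16 (55966275 to 55971435, plus strand).

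Ribosomes are built by a separate set of nucleolar factors. Of 62 ribosome biogenesis genes, all tested, 25 fell and 1 rose in TDE vs CTR with all libraries (16.9% of all tested genes passed), with a median log2 fold change of -0.64. Without CTR_1, 38 fell and 1 rose, with a median of -0.52 (34.8% of all tested genes passed, 18.3% lower). In TDE vs NE 19 fell, and 46 fell without CTR_1, and none rose in either (14.0% and 41.1% of all tested genes passed). The lowest called genes in TDE vs CTR were Mrto4, a large subunit assembly factor, at -1.92 ± 0.49 (SE, adjusted p = 0.0332), Gar1, a protein of the H/ACA pseudouridylation complexes, at -1.90 ± 0.41 (SE, adjusted p = 0.0163) and Nop16 at -1.48 ± 0.39 (SE, adjusted p = 0.0374). Gar1 had 17.4, 7.90 and 5.60 CPM in CTR_1, CTR_2 and CTR_3, 6.79, 7.27 and 9.40 CPM in the NE libraries and 2.77, 3.17 and 2.30 CPM in the TDE libraries, and every TDE library was below every other. Without CTR_1 Gar1 was at -1.31 ± 0.22 (SE, adjusted p = 0.00192), Mrto4 at -1.04 ± 0.16 (SE, adjusted p = 0.00128) and Nop16 at -0.84 ± 0.17 (SE, adjusted p = 0.00464). Polr1b, the second-largest subunit of RNA polymerase I, had 11.5, 12.1 and 12.3 CPM in CTR_1, CTR_2 and CTR_3, 11.1, 13.2 and 11.6 CPM in the NE libraries and 4.77, 5.13 and 5.54 CPM in the TDE libraries, with CTR_1 inside the range of the others and no overlap with TDE. Its fold change was -1.22 ± 0.14 (SE, adjusted p = 0.00111) in TDE vs CTR and -1.22 ± 0.14 (SE, adjusted p = 0.00102) in TDE vs NE. Nop58, a core box C/D protein, was at -1.10 ± 0.12 (SE, adjusted p = 8.31e-04) in TDE vs CTR. At the other end Gnl3 (nucleostemin) rose (log2 fold change 0.60 ± 0.17 SE, adjusted p = 0.048), and Rrp36 at -0.56 ± 0.15 (SE, adjusted p = 0.0351) and Myc at -0.57 ± 0.14 (SE, adjusted p = 0.0259) were the smallest of the called decreases. Polr1b and Nop58 were chosen after their values were seen.

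Of the other lists, the 79 tested mitochondrial ribosomal protein genes had 0 called by edgeR in TDE vs CTR with all libraries, with 25 at an unadjusted p under 0.05, where 5226 of all 15028 tested genes were, and 6 called without CTR_1 (2 higher, 4 lower), against 34.8% of all tested genes. Mrpl45, chosen after its values were seen, had 68.95, 30.6 and 27.2 CPM in CTR_1, CTR_2 and CTR_3, 24.6, 25.1 and 32.5 CPM in the NE libraries and 88.3, 85.2 and 81.9 CPM in the TDE libraries, and rose in TDE vs NE (log2 fold change 1.64 ± 0.34 SE, adjusted p = 0.0149). Of the 21 other TOP messengers, such as elongation factors, 0 passed with all libraries, 7 had an unadjusted p under 0.05, and 1 passed without CTR_1 (34.8% of all tested genes), the snoRNA host Gas5 (log2 fold change -0.67 ± 0.16 SE, adjusted p = 0.0122). Of 32 initiation factors 2 rose with all libraries, Eif2s2, a subunit of eIF2, at 0.51 ± 0.12 (SE, adjusted p = 0.0269) and the cap-binding protein Eif4e at 0.50 ± 0.14 (SE, adjusted p = 0.047). Without CTR_1, 6 rose and 3 fell. In both fits these shares were below those of all tested genes (16.9% and 34.8%). Of 29 genes of the TOR pathway 2 rose and 3 fell, which is near the share of all tested genes. Ddit4 (REDD1), an inhibitor of TOR complex 1, had 9.51, 14.9 and 12.1 CPM in CTR_1, CTR_2 and CTR_3, 12.8, 11.5 and 12.2 CPM in the NE libraries and 75.6, 85.4 and 75.02 CPM in the TDE libraries, and every TDE library was above every other, at a log2 fold change of 2.69 ± 0.18 (SE, adjusted p = 1.03e-04). Depdc5, of the GATOR1 complex, rose (log2 fold change 1.004 ± 0.24 SE, adjusted p = 0.0266). Sesn1 at -0.76 ± 0.14 (SE, adjusted p = 0.00853), Mlst8 at -0.70 ± 0.13 (SE, adjusted p = 0.00862) and Rptor, the defining subunit of TOR complex 1, at -0.54 ± 0.16 (SE, adjusted p = 0.0488) fell. Without CTR_1 the TOR list had 5 higher and 3 lower, a smaller share than that of all tested genes, and each of the 5 genes named here still passed. None of the 9 tested S6 kinase genes passed with all libraries, and 1 had an unadjusted p under 0.05. Of 6 tested paralogs that the name rule leaves out, Rps4l fell (log2 fold change -2.10 ± 0.60 SE, adjusted p = 0.0458), at 1.50 to 1.83 CPM in the TDE libraries, and was at -1.06 ± 0.29 (SE, adjusted p = 0.0201) without CTR_1.

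**Figure D5:**
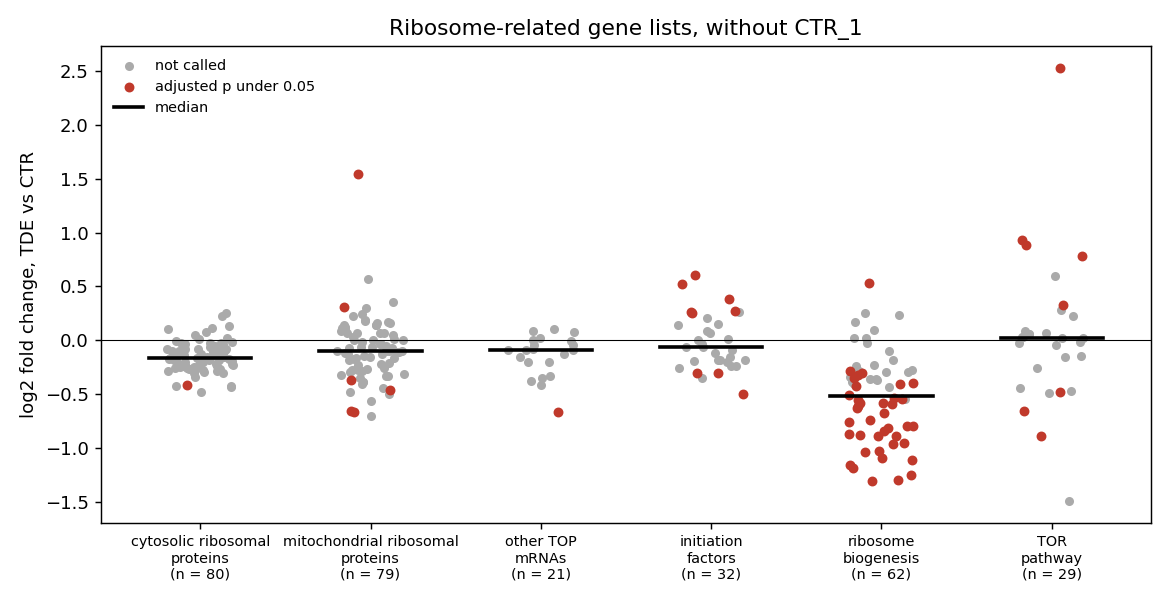
Log2 fold change in TDE vs CTR without CTR_1 of the genes in 6 lists, each point a gene, red where the adjusted p was under 0.05, with the list's median as a black line. The ribosome biogenesis genes have 39 red points, 38 of them below 0, and the 80 cytosolic ribosomal protein genes have 1.

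Markers of other cells moved with the libraries as well. The summed level of 9 neutrophil markers was 28024 CPM in CTR_1, 7001 to 9296 CPM in CTR_2 and CTR_3, 7381 to 10644 CPM in NE and 3068 to 3362 CPM in TDE, with CTR_2 and NE_3 the next highest after CTR_1, and 7 of the 9 fell in TDE vs CTR (9 without CTR_1). Of all tested genes 16.9% passed in this pair, 7.57% higher and 9.34% lower, and without CTR_1 34.8%, 16.5% higher and 18.3% lower. The 7 eosinophil markers all fell, from 624 to 1671 CPM in CTR to 115 to 144 CPM in TDE, and 5 of 6 mast cell and basophil markers did (7 and 6 without CTR_1). Of 12 dendritic cell markers 7 fell (9 fell and 1 rose without CTR_1), from a sum of 4879 to 14723 CPM in CTR to 2642 to 2806 CPM in TDE. Of 9 macrophage markers 1 rose and 2 fell (2 and 6 without CTR_1), with sums of 3862 to 4451 CPM in CTR and 5064 to 5420.5 CPM in TDE. Among the 10 proliferation genes 1 rose and 3 fell (4 and 4 without CTR_1). B cell markers (5 genes) summed to 33.6 to 71.8 CPM in CTR and 31.4 to 31.5 CPM in TDE, and 3 fell (3 fell and 1 rose without CTR_1). The sums of T and NK cell (6 genes, 3 tested, 2 of which fell), erythroid (6 genes, 1 tested, not called) and fibroblast markers (6 genes, 5 tested, 2 of which rose) stayed at or under 11.3 CPM in every library. No marker of any list was at 0 in all libraries. Their part in the ribosomal protein values was not tested.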

How the data were processed

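RNA-seq was done on 9 libraries of mouse BMDCs, 3 each of CTR, NE and TDE. The authors deposited expected counts per gene, made with TopHat2 2.1.1 according to the submitters' processing notes, and the counter, the genome build and the strand setting are not given in the sources used here. Their group means were not used. The values were rounded to whole numbers, and genes were kept with filterByExpr (15028 of 57238). The 3 pairs of groups were tested with edgeR 4.0.16 (R 4.3.3), TMM factors, the quasi-likelihood test, 1 mean per group over the 9 libraries and Benjamini-Hochberg adjustment at 0.05. Alternatives were DESeq2 1.42.0, limma voom 3.58.1 with sample weights, other scalings and filters, offsets for gene length, a replicate block, a fit per pair and leaving out each library. Length offsets without CTR_1 and the summed ribosomal protein reads as scale, with and without CTR_1, were alternatives chosen after seeing the data. The method was tested on simulated data with 200 changed genes. With the spread of all 9 libraries, edgeR called 14.7% of 2-fold and 92.9% of 4-fold changes, and 7 unchanged genes. With the spread of the 8 libraries without CTR_1 it called 91.8% and 100%, and 15 unchanged genes. The simulation gave all genes a common spread and held no outlying library, unlike these data.

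The genes and lists were chosen with earlier results of these data known. Named genes were the 6 highest and 6 lowest fold changes in TDE vs CTR and in TDE vs NE, all called genes, the 5 highest and 5 lowest per length, the stalk, 5S and ubiquitin fusion genes, the rows not on the curated list and, of each other list, the 3 highest and 3 lowest called. Some genes that this rule names are not reported here. Copies were found with BLAST 2.17.0 in GENCODE M21 (GRCm38), and start sequences come from RefSeq (GRCm38.p6). Tables were handled with Python 3.11.15 and pandas 2.3.3.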

Additional observations from a re-analysis of the deposited data

How the results depend on the processing

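The median log2 fold change of the 80 ribosomal protein genes, with 1 library left out at a time, ran from -1.85 to -0.17 (without CTR_1) in TDE vs CTR, from -0.25 to 0.0721 (without NE_3) in TDE vs NE and from -1.68 to 0.0001 (without CTR_1) in NE vs CTR. The number of these genes called ran from 0 to 62 (without CTR_3) in TDE vs CTR, from 0 to 3 (without CTR_1) in TDE vs NE and was 0 throughout in NE vs CTR. The mean share of reads ran from 3.24% to 7.86% in CTR, 2.84% to 3.41% in NE and 2.77% to 2.86% in TDE. In TDE vs CTR, DESeq2 called 20, voom with sample weights 28 (median -0.27), length offsets 2, and length offsets without CTR_1 11. In TDE vs NE, the fit to the 6 libraries called 4, voom 6, length offsets without CTR_1 14, and the summed ribosomal protein reads without CTR_1 2. The causes were not tested.

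Of 456 values of named genes (24 results under 19 alternatives), 423 kept direction and side of the threshold, 20 passed it newly and 13 reversed. None of the 24 results passed in the main fit, so the 423 are values that kept their direction and did not pass, whatever their size. Rpl36 in TDE vs CTR, at -2.56 with all libraries and -0.31 without CTR_1, is counted among them. In TDE vs CTR, voom reversed Rpl37rt to 0.10, Rps27rt to 0.20, Rpl3 to 0.17 and Rps2 to 0.0128, and length offsets reversed Rps27rt to 0.33, Rps2 to 0.11 and Rpl7a to 0.23. Leaving out 1 library gave -3.95 to 0.11 for Rpl37rt, -1.15 to 0.13 for Rps27rt, -0.998 to 0.26 for Rpl3, -0.77 to 0.11 for Rps2 and -0.47 to 0.0448 for Rpl7a, with the positive values those without CTR_1. In TDE vs NE, Rpl37rt ran from -0.0351 to 0.61.

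The labels do not state that same-numbered libraries belong together, so the numbers were not taken as pairs. Deviations of same-numbered libraries from their group means had correlations of -0.03, -0.06 and 0.07 in TDE and CTR, 0.03, -0.04 and -0.07 in TDE and NE, and -0.37, 0.18 and -0.59 in NE and CTR. The deviations of a group sum to 0, and CTR_1 stood far apart in CTR, so these correlations cannot show or exclude pairing. With the replicate block, 0 ribosomal protein genes were called in each pair, with medians of -1.14 in TDE vs CTR, -0.19 in TDE vs NE and -0.94 in NE vs CTR, and 1285, 1175 and 0 of all tested genes were called.

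With CTR_1 in the fit, SEs in TDE vs NE ran from 0.26 (Rpl7a) to 1.23 (Rpl37rt) on the log2 scale, at a median log2 fold change of -0.16. Differences of that size could be missed in this fit. Without CTR_1 the SEs were smaller, and 3 of the 80 passed, where 41.1% of all tested genes did. Reads shared with near-identical copies limit what can be said of single genes.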
